A study of Rattus norvegicus with 20 samples.

Results

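To follow what continued culture on a soft surface does to the transcriptome of mesenchymal stromal cells (MSCs), 5 RNA-seq libraries of a series of 20 were compared. The members are the 3 libraries of MSCs after 3 weeks on 2 kPa silicone (3w2) and the 2 libraries after 5 weeks on 2 kPa silicone (5w2), chosen by surface and passage as the sample labels give them. MSCs came from the bone marrow of female Wistar rats, were enriched with beads against CD54 and CD90, and were passaged once a week onto fresh gelatin-coated surfaces, so that 3w2 cells had 3 and 5w2 cells 5 passages. The labels of these groups name no transgene and no agent. The other groups are used only where they bear on this interval: 1 week on soft surfaces (1w2, 3 libraries), 1, 3 and 5 weeks on 100 kPa stiff silicone (1w100 and 3w100, 3 libraries each, and 5w100, 2 libraries), and cells moved after 3 weeks from soft to stiff (3w2→2w100) or from stiff to soft (3w100→2w2) for 2 more weeks, with 2 libraries each. The study describes biological replicates as MSCs of different rats but does not state which library numbers share a rat.

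MSCs are the stromal progenitors of bone marrow that can form bone, fat and cartilage cells and that adhere to and grow on culture plastic. On stiff surfaces they gain traits of myofibroblasts, the contractile, matrix-producing cells of scars, whereas a surface as compliant as healthy skin keeps the tension in their actin fibers low. The deposited table names genes by Ensembl identifier, and neither it nor the reference tables used here pair an identifier with a symbol: 0 of 30560 identifiers were paired. Genes are therefore described by level, direction and size of change, with 2 identifiers in each direction. The markers that would check the label of the cells, and the lists of matrix, contractile, lineage and blood cell genes, were not read, and no promoter was printed.

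The 3w2 libraries held 16127907 to 21720761 counts on genes and the 5w2 libraries 24103082 and 21907805. In a principal component analysis of the 8 libraries kept on soft surfaces, PC1 held 80.9% of the variance among the 500 most variable genes. Along it the 1w2 libraries lay between -57.2 and -38.1, the 3w2 libraries at 23.3, 34.3 and 3.91 (replicates 1 to 3), and the 5w2 libraries at 41.4 and 47.1. The 5w2 libraries were thus farthest from 1w2, and 3w2 replicate 3 was the library of its group nearest to 1w2. PC2, with 8.59% of the variance, placed 5w2 replicate 1 at 5.77 and replicate 2 at -24.5, while the 3w2 libraries were spread from -5.33 to 19.9.

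**Figure D1:**
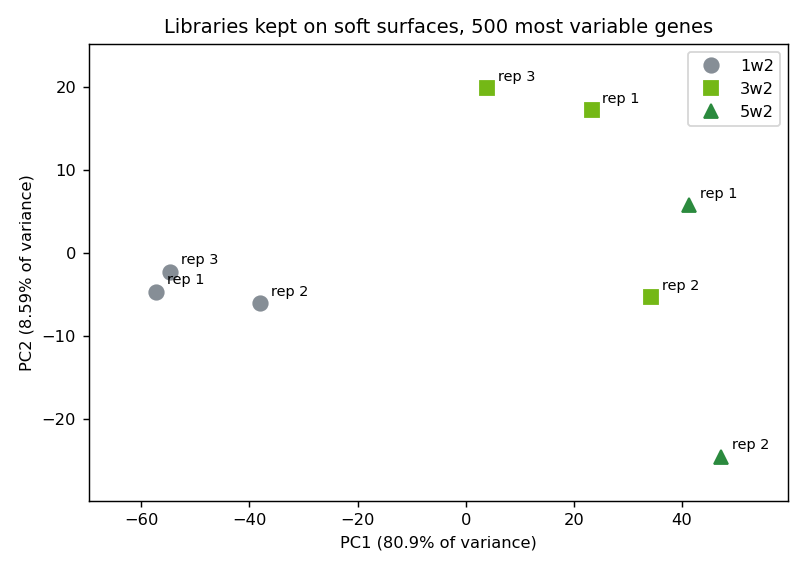
Principal components 1 and 2 of log2 CPM in the 8 libraries kept on 2 kPa surfaces, computed on the 500 most variable genes, with 1 point per library. The 1w2 libraries lie at the left, the 5w2 libraries at 41.4 and 47.1 on PC1, and 3w2 replicate 3, at 3.91, lies between 1w2 and the rest of its group.

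As a measure of distance that uses every gene tested, the root mean square difference in log2 CPM per gene was taken between libraries. Between 3w2 and 5w2 libraries it averaged 0.689 over 6 pairs, with a range from 0.525 to 0.884. Replicates of 3w2 were 0.614 apart on average (0.576 to 0.685, 3 pairs) and the 5w2 replicates 0.669 (1 pair). The mean over pairs across the 2 times was therefore close to the distances within a time, and both 3w2 replicate 1 with 5w2 replicate 1 (0.546) and 3w2 replicate 2 with 5w2 replicate 2 (0.525) were closer than the 5w2 replicates were to each other. The largest distances across the 2 times, 0.795 and 0.884, both involved 3w2 replicate 3. For scale, 1w2 and 3w2 libraries averaged 0.938 (9 pairs) and 1w2 and 5w2 libraries 1.17 (6 pairs).

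No single gene passed the test between 5w2 and 3w2. Counts were scaled by TMM and tested with edgeR's quasi-likelihood test in 1 model of all 8 groups, and 0 of 14034 genes (0.00%) had a Benjamini-Hochberg adjusted p below 0.05. The smallest adjusted p was 0.113. At an unadjusted p below 0.05 there were 1315 genes, 9.37% of those tested. Where no gene differed, a share of about 0.05 would be expected. Of the 1315 genes, 946 (6.74%) were lower and 369 (2.63%) higher in 5w2, so that lower genes made up 71.9%. DESeq2 on the same groups called 104 of 14709 genes (0.707%), 95 lower and 9 higher in 5w2. The edgeR number at the unadjusted threshold and the DESeq2 number depended on which libraries were kept. Without 3w2 replicate 1 they were 1075 and 85. Without 3w2 replicate 3, edgeR had 701 genes at the unadjusted threshold (540 lower) and DESeq2 called 7, and without 5w2 replicate 2 these were 799 (577 lower) and 1. DESeq2 called 241 genes without 3w2 replicate 2. The 701 genes found without 3w2 replicate 3 were close to the share of about 0.05 expected where no gene differed. In 16.5% of all genes tested (2321) both 5w2 libraries lay below all 3w2 libraries, and in 15.8% (2223) above them. If the order of these libraries were random, a share of 0.1 would be expected in each direction. The direction differed with the mean level over all libraries. Of the 1796 genes below 1 CPM, 319 lay below and 83 above the 3w2 libraries. Of the 3602 genes from 1 to 10 CPM these were 776 and 265. They were 1061 and 1362 of the 6885 genes from 10 to 100 CPM, and 165 and 513 of the 1751 genes over 100 CPM.

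The excess of lower genes lay in the size of the changes and in genes of low level. Over all genes the log2 fold change had a median of 0.00, while the lowest 1% of genes lay below -3.52 and the highest 1% above 0.99. Fitted values of genes without counts in 5w2 depend on the prior count and are no bound. Over 2-fold differences, with no test, were seen in 1035 genes toward lower and 133 toward higher levels in 5w2. Among the 1796 genes with a mean below 1 CPM over all libraries, 8.80% were lower and 0.891% higher at the unadjusted threshold. In the 3602 genes from 1 to 10 CPM these shares were 10.4% and 1.03%. They were 5.34% and 3.63% in the 6885 genes from 10 to 100 CPM, and in the 1751 genes over 100 CPM the order turned, with 2.68% lower and 3.77% higher. The standard error of a log2 fold change had a median of 0.74 in the lowest of these classes, 0.34 in the next and 0.15 in both upper classes, so that a change of the same size was measured far less precisely in the genes of low level.

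**Figure D2:**
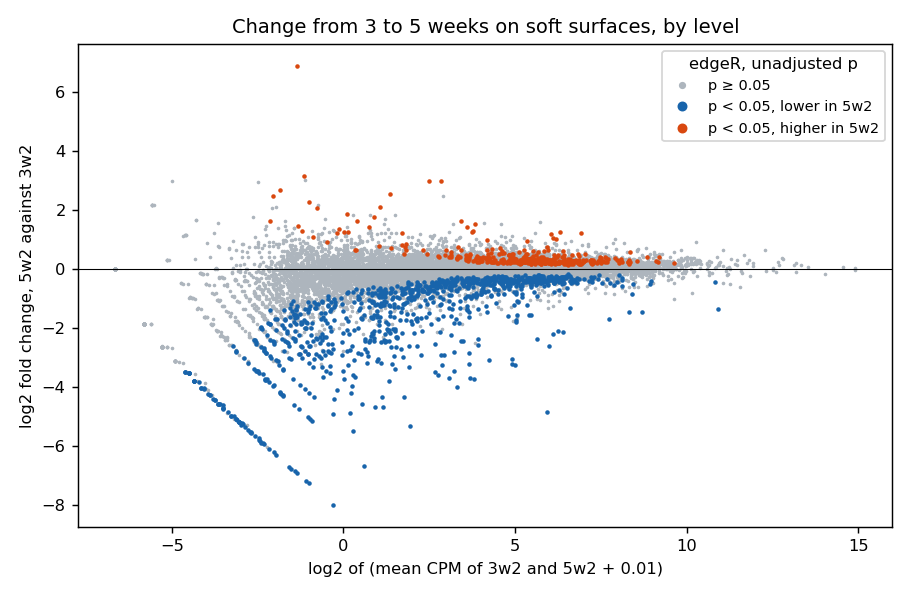
Log2 fold change between 5w2 and 3w2 (vertical axis) against the log2 of the mean CPM of the 2 groups plus 0.01 (horizontal axis) for the 14034 genes tested, with genes at an unadjusted edgeR p below 0.05 in color. Of these, 946 lie below and 369 above 0, and most large differences sit below 0 among genes of low level.

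The 946 genes that were lower in 5w2 at the unadjusted threshold had a median log2 CPM of 2.67, 2.30 and 3.06 in 3w2 replicates 1 to 3 and of 1.62 and 1.47 in the 5w2 libraries, values that the choice of genes partly sets. The 3w2 libraries thus differed among themselves, with replicate 3 highest. The other groups are not part of that contrast, but they share its model, which estimates the spread over all libraries, and 3w2→2w100 cells had the same soft priming. In 1w2 the median was 3.20 to 3.33, above all 3w2 libraries. In the soft-primed cells that spent the last 2 weeks on a stiff surface (3w2→2w100) it was 1.57 and 1.67. It was 2.85, 3.03 and 3.07 in 3w100 and 2.31 and 2.94 in 5w100. In the stiff-primed cells that spent the last 2 weeks on a soft surface (3w100→2w2) it was 2.41 and 3.01. These genes took 3.66% to 3.84% of the counts in the 1w2 libraries, 2.84%, 2.46% and 3.47% in 3w2, and 1.85% and 1.74% in 5w2. Their lower level in 5w2 was a median log2 fold change of -1.0, against 0.00 over all genes. In bulk RNA, fewer cells of a type and less RNA per cell cannot be told apart.

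The 369 higher genes had another profile. They were of higher level, with a median log2 CPM of 5.27, 5.31 and 5.17 in 3w2 and 5.55 and 5.60 in 5w2, and their median log2 fold change was 0.30. In 1w2 their median was 5.15 to 5.25, which overlaps the range of 3w2, and in 3w2→2w100 it was 5.61 and 5.50. The lower side of the comparison thus held fewer counts and larger differences, the higher side more counts and smaller ones. Both sides were chosen by p on these libraries. Genes of low level have larger standard errors and pass only with larger differences, so the threshold partly sets this contrast. The 95 genes that DESeq2 called as lower sat at the far end of the first profile. Their median log2 CPM was 3.30 to 3.51 in 1w2, 1.89, 1.55 and 2.99 in 3w2, and 0.08 and -0.37 in 5w2. DESeq2 chose these genes on the same 3w2 and 5w2 libraries, so the gap between those groups is set by the choice. Within 3w2, replicate 3 again had the highest median.

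**Figure D3:**
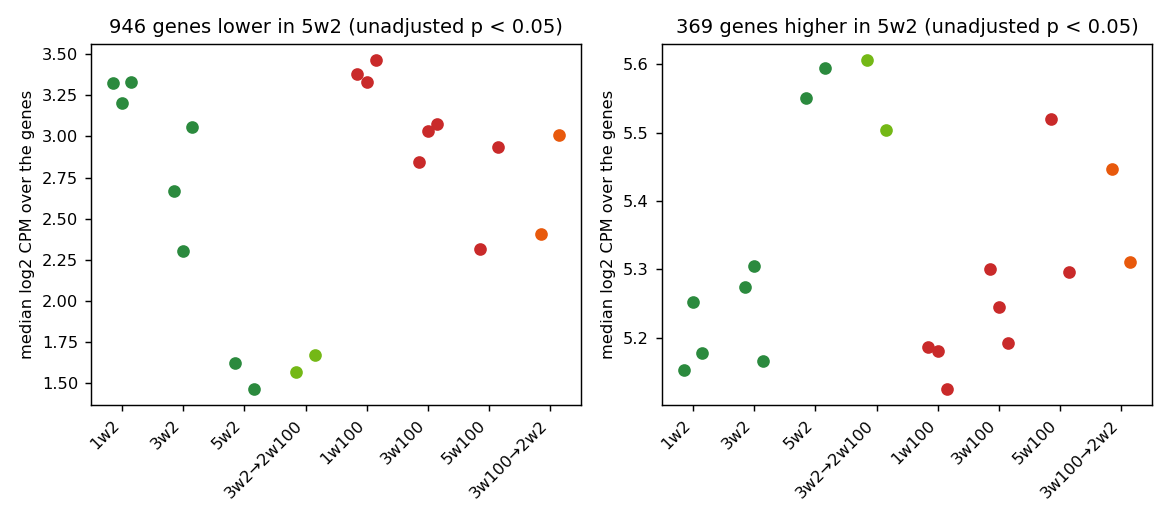
Median log2 CPM over the 946 genes lower (left) and the 369 genes higher (right) in 5w2 at an unadjusted edgeR p below 0.05, with 1 point per library in the 8 groups. On the left the 1w2 libraries lie at 3.20 to 3.33, the 3w2 libraries at 2.30 to 3.06 and the 5w2 libraries at 1.47 and 1.62, with 3w2→2w100 near 5w2. The 3w2 and 5w2 points are those by which the genes were chosen.

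Of the genes with at least 1 CPM in the higher group and no overlap between libraries, the 2 of smallest p in each direction are given. Their lack of overlap and their small edgeR p are therefore set by the choice. ENSRNOG00000007370, among the lower genes, had 4.81, 3.01 and 7.0 CPM in the 3w2 libraries and 1.21 and 0.766 CPM in the 5w2 libraries. All 5w2 values lay below the lowest 3w2 value, as the choice required, and 3w2 replicate 3 was highest. Its level was 4.98-fold lower, -2.32 on the log2 scale with a standard error of 0.37 (edgeR adjusted p = 0.113). Its level in 1w2 was 11.2 ± 3.11 CPM (SD, n = 3). In 3w100 it was 9.82 ± 0.451 CPM (SD, n = 3) and in 5w100 7.03 ± 0.263 CPM (SD, n = 2), while 3w2→2w100 had 1.13 ± 0.224 CPM (SD, n = 2). Stiff-grown libraries at 5 weeks thus lay above the 3w2 libraries 1 and 2, and the soft-primed libraries moved to the stiff surface, at 1.28 and 0.967 CPM, were close to those of 5w2. edgeR called the gene with the replicate number as a block (adjusted p = 0.0323) and without 3w2 replicate 2 (adjusted p = 0.0356), and over 14 alternatives its adjusted p ran from 4.05e-05 to 0.791.

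ENSRNOG00000006545, a gene of much higher count, had 338, 292 and 371 CPM in the 3w2 libraries and 238 and 213 CPM in the 5w2 libraries. The groups did not overlap, as the choice required, and the highest library was again 3w2 replicate 3. The level was 1.48-fold lower, -0.56 on the log2 scale with a standard error of 0.11 (edgeR adjusted p = 0.243). Unlike the gene before it, it was no higher at 1 week, with 273 ± 16.7 CPM (SD, n = 3) in 1w2, and its stiff-grown levels were 315 ± 13.6 CPM (SD, n = 3) in 3w100 and 286 ± 27.7 CPM (SD, n = 2) in 5w100.

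On the higher side, ENSRNOG00000042932 had 32.5, 32.3 and 25.8 CPM in the 3w2 libraries and 45.7 and 48.2 CPM in the 5w2 libraries. The lowest 3w2 value was that of replicate 3, and all 5w2 values lay above the group, as the choice required. The level was 1.56-fold higher, 0.64 on the log2 scale with a standard error of 0.12 (edgeR adjusted p = 0.243). At 1 week it was at 20.3 ± 0.901 CPM (SD, n = 3) on soft surfaces, and in the interval from 1 to 3 weeks, which shares the 3w2 libraries, it was higher by 0.57 on the log2 scale with a standard error of 0.11 (edgeR adjusted p = 0.00539). Stiff-grown cells had nearly the same levels, 32.7 ± 4.62 CPM (SD, n = 3) in 3w100 and 46.1 ± 3.84 CPM (SD, n = 2) in 5w100.

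ENSRNOG00000067388 had 2.17, 1.09 and 1.46 CPM in the 3w2 libraries and 12.9 and 12.5 CPM in the 5w2 libraries. The groups did not overlap, as the choice required. The level was 7.96-fold higher, 2.99 on the log2 scale with a standard error of 0.58 (edgeR adjusted p = 0.243). Of the 8 groups, 3w2 was the one with the lowest mean. The 1w2 libraries had 7.11, 7.60 and 1.51 CPM, of which the third lay in the range of 3w2. Means elsewhere were 10.2 ± 0.796 CPM (SD, n = 3) in 3w100, 11.2 ± 0.199 CPM (SD, n = 2) in 5w100 and 13.1 ± 1.65 CPM (SD, n = 2) in 3w2→2w100. The 1w100 libraries had 7.89, 1.66 and 7.66 CPM. Levels in the 3w2 range were thus also seen in 1 library each of 1w2 and 1w100, and the 5w2 level was above all 3w100 and 5w100 libraries. DESeq2 on all groups called all 4 of these genes, with adjusted p values from 4.05e-05 to 0.00164. The genes were chosen by edgeR p and lack of overlap on the same libraries, so these calls are no separate support.

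**Figure D4:**
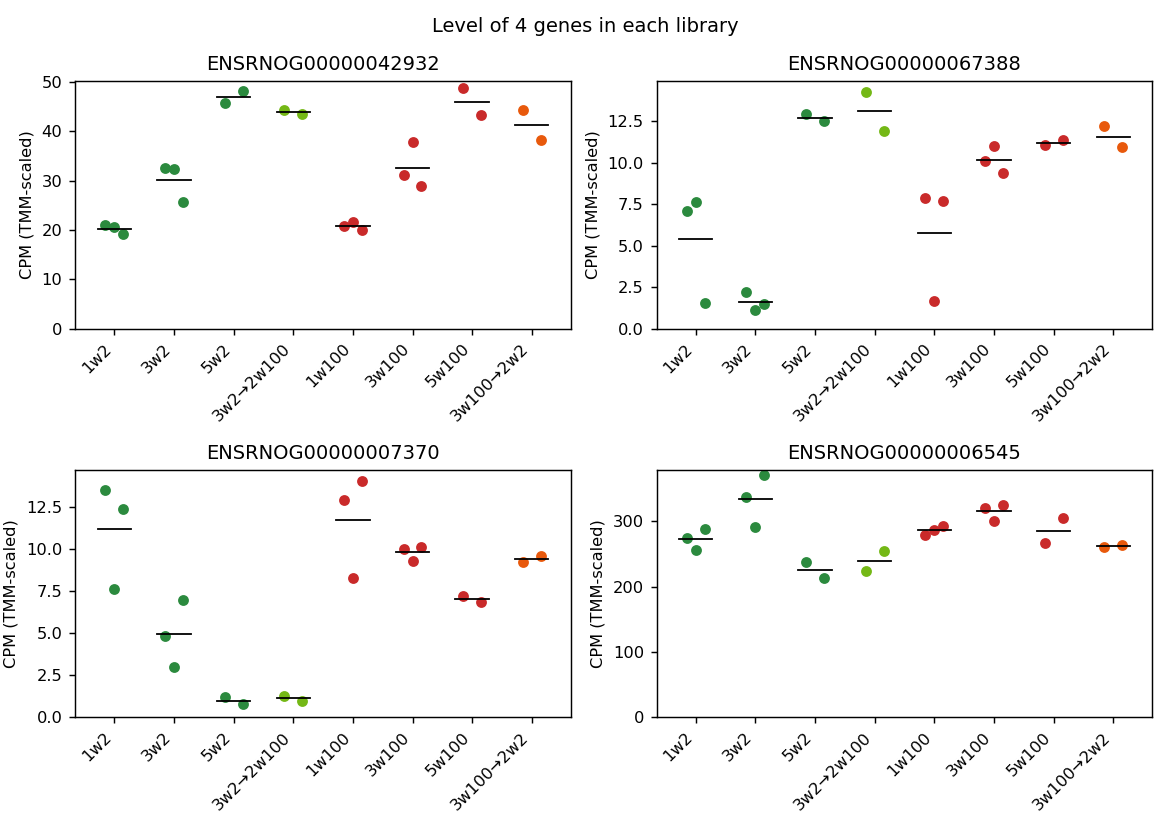
TMM-scaled CPM (vertical axes, linear, from 0) of the 4 genes in each library of the 8 groups (horizontal axes), with 1 point per library and a black line at each group's mean. The genes were chosen so that the 5w2 points lie outside the range of the 3w2 points. ENSRNOG00000067388 is at 1.09 to 2.17 CPM in 3w2 against 12.5 and 12.9 CPM in 5w2.

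To ask whether the change was particular to the soft surface, the same interval was taken in cells kept on the stiff surface, in separate libraries. Between 5w100 and 3w100 edgeR also called 0 genes. The unadjusted threshold was passed by 889 genes (6.33%), of which 471 (3.36%) were lower and 418 (2.98%) higher in 5w100. DESeq2 called 9 of 7346 genes here, where fewer genes kept an adjusted p than for the soft change (14709). The 5w100 libraries lay below all 3w100 libraries in 10.7% of genes and above them in 10.3%, near the share of 0.1 that a random order would give. The difference between the soft and the stiff change was tested as an interaction. Here edgeR called 0 genes and 404 (2.88%) passed the unadjusted threshold, below the share expected where no gene differs. DESeq2 on all groups called 0 as well, with 451 (2.2%) past that threshold. No gene was thus shown to change differently on the 2 surfaces by either of these fits. Of the 4 genes above, ENSRNOG00000007370 had the smallest interaction p, with a log2 difference of -1.83 (standard error 0.48, unadjusted p = 0.00158 and edgeR adjusted p = 1.00), and ENSRNOG00000042932 the largest, with 0.14 (standard error 0.17, edgeR adjusted p = 1.00).

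Most genes that passed the unadjusted threshold on soft surfaces had the same direction on the stiff surface. Of the 946 genes lower in 5w2, 772 (81.6%) had a log2 fold change below 0 between 5w100 and 3w100, where 51.3% of all genes did. Genes of low level were below 0 more often on stiff surfaces too, but the share stayed higher for the soft-lower genes within each class, at 83.4% against 61.2% from 1 to 10 CPM and 83.4% against 47.8% from 10 to 100 CPM. Of the 369 genes higher in 5w2, 314 (85.1%) were above 0 in the stiff comparison, against 48.5% of all genes. The stiff changes were smaller, with a median log2 fold change of -0.26 for the soft-lower genes, which had been chosen on the soft side where it was -1.0. Of the soft-lower genes 14.0% were lower at the unadjusted threshold on stiff surfaces as well, and of the soft-higher genes 19.8% were higher. At that threshold in both comparisons there were 212 genes, 16.1% of the soft and 23.8% of the stiff genes, of which 132 were lower in both, 73 higher in both and 7 opposite. Across the 14034 genes the soft and the stiff log2 fold changes had a Pearson r of 0.46 and a Spearman rho of 0.38. This is a description across genes, which are not independent, and cultures of 1 rat may be in both comparisons. Both 3-week groups hold a replicate 3 and neither 5-week group does. Replicates 3 of 3w2 and 3w100 were the closest pair between those groups, at a distance of 0.399. The part of these libraries in the shared direction was not tested and cannot be told apart from that of time.

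**Figure D5:**
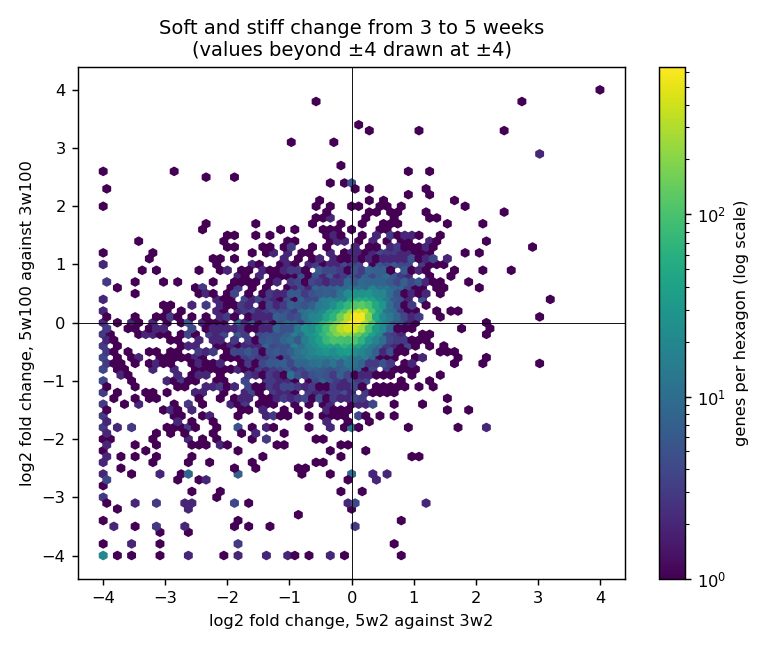
Log2 fold change from 3 to 5 weeks on soft (horizontal axis) and on stiff surfaces (vertical axis) for the 14034 genes tested, with color giving the number of genes per hexagon on a log scale and values beyond ±4 drawn at ±4. The cloud runs from lower left to upper right (r = 0.46) and reaches farther toward lower levels in 5w2 than toward higher ones.

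The soft interval from 3 to 5 weeks had fewer genes past the test than the soft interval before it, which had 3 libraries against 3. Between 3w2 and 1w2 edgeR called 1127 of 14034 genes, 523 higher and 604 lower in 3w2. Log2 fold changes over all genes had an SD of 1.03 there, against 0.75 between 5w2 and 3w2 and 0.58 between 5w100 and 3w100. The soft comparisons share the 3w2 libraries, and the difference between the intervals was not tested. When soft-primed cells spent the last 2 weeks on the stiff surface, edgeR called 0 genes between 3w2→2w100 and 3w2 and DESeq2 114 of 13546. At the unadjusted edgeR threshold 1100 genes were lower and 548 higher after the switch, together 11.7% of the genes tested. The 4 genes had log2 fold changes there of -2.13, -0.48, 0.54 and 3.04, in the order in which they are described. These values use the same 3w2 libraries as those above.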

How the data were processed

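The series holds bulk polyA RNA-seq from rat MSCs, 20 libraries in 8 groups, with groups and replicate numbers from the sample labels. Raw counts for each Ensembl gene were deposited by the authors, made with TrimGalore!, FastQC, HISAT2 on mRatBN7.2 (rn7 in the submitters' processing notes) and FeatureCounts. The sources used here give no versions and no settings for strand or multi-mapping reads, which leaves near-identical copies and overlapping genes uncertain. Library totals were 16127907 to 24139128, and 0 of 30560 rows name no gene. For a count of 0 the upper limit is 3 counts, which covers counting error alone.

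These counts were fitted with edgeR 4.0.16 (R 4.3.3), using TMM factors, filterByExpr (minimum count 10, total 15), and the quasi-likelihood test over all 20 libraries in 1 model of 8 groups without a block, with Benjamini-Hochberg adjustment over 14034 genes. Standard errors are the size of the log2 fold change over the root of its F. CPM use TMM factors, and log2 CPM add a prior count of 2. DESeq2 1.42.0, other scalings, filters, samples, depths and left-out libraries were alternatives, and the fits were tested on simulated data. P-values measure the spread between these libraries. The members, lists and tests were chosen with earlier results of these data known. The rule for named genes asked for the 10 called genes of largest change in each direction, filled by smallest p, that have a symbol, at least 1 CPM in the higher group and libraries that do not overlap, for members of 34 gene lists, and for the genes of smallest interaction p. With 0 of 30560 identifiers paired with a symbol, no list was read, and 2 identifiers per direction are given.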

Additional observations from a re-analysis of the deposited data

How the results depend on the processing

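Between 5w2 and 3w2 edgeR called 0 genes with RLE size factors, with no filter on low counts, with a filter on a mean of 10 counts, on only 3w2 and 5w2, on only the 3 soft groups, and after thinning to the smallest library. The count was 104 with DESeq2 on all groups, 173 with DESeq2 on only 3w2 and 5w2 (146 lower), 1315 at the unadjusted threshold, and 0 to 1 when 1 library was left out. Leaving out 1 library in the DESeq2 fit on all groups, a step added after seeing the data, gave 1 to 241 genes. Without 3w2 replicates 1, 2 and 3 in turn these were 85, 241 and 7, and without 5w2 replicates 1 and 2 they were 107 and 1. The number at an unadjusted p below 0.05 was 701 to 1563 with 1 library left out and 1231 to 1660 under the other alternatives, and lower genes outnumbered higher genes under each of them. Libraries did not overlap in 4544 of the 14034 genes tested, and in 5663 to 8296 genes with 1 library left out, where fewer libraries have to be separated. A random order separates fewer libraries more often, and the share it would give was not computed for these smaller sets. The larger counts are therefore no sign of a clearer separation. For the difference between the soft and the stiff change, DESeq2 on only the 4 groups called 2 genes, 404 passed the unadjusted threshold, and 0 were called under the other alternatives. The 4 named genes kept their direction under 14 alternatives each. The cause of these differences was not tested. Alternatives for the gene lists were not run, since no list was read. The replicate number does not mark a rat in the sources used here. By distance, 5w2 replicates 1 and 2 lay 0.340 and 0.327 from 3w2→2w100 replicates 1 and 2, against 0.679 and 0.709 crossed. However, 5w2 replicate 2 was closer to 5w100 replicate 1 (0.768) than to 5w100 replicate 2 (1.02). No 5w2 library has the number of 3w2 replicate 3, so in the full contrast a trait of that culture cannot be told apart from time. Without that library, and so with fewer libraries, edgeR had 701 genes at the unadjusted threshold against 1315, and DESeq2 called 7 against 104. Replicate 1 minus replicate 2 had an r of 0.51 across genes between 3w2 and 5w2, over 2 pairs. With the number as a replicate block, edgeR called 1 gene between 5w2 and 3w2, ENSRNOG00000007370, had 1660 at the unadjusted threshold (1151 lower), and called 0 for the difference between surfaces. The median standard error was 0.74 in genes below 1 CPM and 0.15 in genes over 10 CPM, and the part of depth in this was not tested.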

Other observations

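An exact permutation test of 2 against 3 libraries cannot reach a p below 0.05. It therefore cannot decide whether the number of genes detected differed between 5w2 and 3w2. With every library thinned to 16127907 counts, 15556 and 15310 genes had at least 1 count in 5w2, against 15973, 15749 and 16308 in 3w2, and the groups did not overlap (exact permutation test, two-sided, p = 0.2, where the smallest possible p is 0.1). The 1w2 libraries had 16325 to 16580 such genes, 3w2→2w100 15359 and 15307, and 5w100 15559 and 16087. No gene with at least 10 counts in each 3w2 library was without counts in both 5w2 libraries, and 9 genes with at least 3 counts in each 3w2 library were. The share of counts in the 100 most counted genes was 33.1% to 35.5% in 3w2 and 33.6% and 35.5% in 5w2 (exact permutation test, two-sided, p = 0.8).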
